A study of Mus musculus with 10 samples.

Results

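The clones described here are BFP and mCHERRY barcodes that had no reads in either baseline sample and reads in at least 1 of the 8 disease samples of a retransplanted MLL-AF9 leukaemia. They numbered 1988 of the 19704 barcodes in the table, 712 carrying the BFP library name and 1276 the mCHERRY name. They made up 26.3% of the 7549 BFP and mCHERRY barcodes found at disease, or 17.3% of the 4113 BFP and 37.1% of the 3436 mCHERRY barcodes. The other 5561, which had reads in a baseline, are called baseline-seen clones and serve as the comparison. The clones were chosen by their measured CPM at baseline (0) and at disease (above 0), so no test of disease against baseline is given. The clones were rare at disease. Those that reached 10 CPM (counts scaled to a common total per library) in NSG mice did not do so in PTPRCA mice. Of the 1988 clones, 248 were found in the same strain of both donors, and 132 without 2 technical libraries of donor 1 spleen.

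SPLINTR is a lentiviral barcoding system in which a transcribed DNA barcode is delivered together with a fluorescent protein, so that each transduced cell and its descendants carry one heritable tag. MLL-AF9 is a fusion oncogene that turns haematopoietic progenitors into an aggressive myeloid leukaemia. When such a leukaemia is passed to a new host, the share of each barcode in the recovered DNA follows the size of that clone, and a clone below the detection limit of the input can still be found later. NSG mice lack mature T, B and NK cells and functional complement, whereas Ptprca mice carry an allele of the leukocyte antigen CD45 and have an intact immune system.

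Mouse c-Kit-positive progenitors had been transduced with the barcode libraries, and viable leukaemia cells were sorted for genomic DNA. Leukaemia cells of donor mouse 1 and donor mouse 2 were each sampled at baseline, and at disease from bone marrow and spleen of NSG hosts and of hosts labelled PTPRCA. Every group thus held 2 samples, 1 per donor. The number of hosts behind a sample, the age of the mice and the time to disease are not stated in the labels. Marrow and spleen of a strain come from the same donor's cells and may come from the same host, so they are not independent samples. Nothing in the labels says whether cells of both donors were barcoded in 1 culture. The tables give barcode names and values, and the barcode letters were not used here.

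By the steps between its low CPM values, each deposited column was inferred to be the mean of 2 to 4 CPM-scaled technical libraries. The labels say that lysates were split into technical replicates, but not how these were combined. The 23 libraries held 1591539 to 4475416 reads, and the samples 5171235 to 10394809. A barcode at 0 in a baseline could still have been present at up to 0.517 CPM in donor 1 or 0.521 CPM in donor 2, the level of 3 reads. PCR reads carry no molecular identifiers, so these floors and the intervals below cover counting error only.

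Some technical libraries stood apart for these clones. In donor 1 NSG spleen, 1 of the 3 libraries alone held 177 of the 241 clones found and 92.0% of their CPM. Of baseline-seen clones with at least 10 CPM there, 566 had reads in all 3 libraries and 9 in that library alone. In donor 1 PTPRCA spleen, 1 of the 2 libraries alone held 172 of 185 clones and 96.0% of their CPM. In donor 2 NSG bone marrow, 2 of the 4 libraries alone held 49 of 196 clones, including 17 of the 39 with at least 10 CPM. Another 7 of those 39 were over 100 CPM, where pairs of libraries were not told apart, and may belong there too. A different library of that sample alone held 82 clones, with a median of 0.123 CPM, and 88 of the 2196 baseline-seen clones. In donor 1 NSG marrow, 46 clones were in each of its 2 libraries alone. Of its 38 resolved clones with at least 10 CPM, 23 were in 1 library, against 7 of 1132 baseline-seen clones. The main results that rest on the spleen libraries of donor 1 are given with and without them. In all results without the NSG spleen library, 8 clones of that sample whose libraries could not be resolved were counted as 0. As deposited those 8 held 335 CPM, and 7 of them were at 10 CPM or more. The NSG marrow libraries of both donors were kept in those results, which are thus not free of clones found in 1 library. The part of library handling in these results was not tested.

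Most of the clones were near the detection limit. The highest disease value of a clone had a median of 0.717 CPM, against 20.0 CPM for baseline-seen clones. In 835 clones (42.0%) every disease value was below the level of 3 reads. A value of 10 CPM was reached by 299 clones (15.0%), of which 176 were BFP and 123 mCHERRY, and by 3284 baseline-seen clones (59.1%). A value of 100 CPM was reached by 20 clones (9 BFP and 11 mCHERRY), against 1651 baseline-seen clones. Without both spleen libraries of donor 1 that stood apart, 170 clones reached 10 CPM and 10 reached 100 CPM. One mCHERRY clone passed 1000 CPM, and 0 passed 10000 CPM, or 1% of reads, a level that 45 baseline-seen clones passed. Just outside the rule lay 90 barcodes with baseline reads below the 3-read level in both donors. Their highest disease values had a median of 3.22 CPM and reached 451 CPM at most, and 29 of them reached 10 CPM.

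Presence was also sparse across samples. A total of 1087 clones (54.7%) were found in 1 disease sample, 685 in 2, 150 in 3 and 59 in 4. Only 7 clones were found in 5 or 6 samples, and 0 in more. Among baseline-seen clones 888 (16.0%) were found in 1 disease sample.

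In donor 1 the NSG samples held most of the reads. The clones took 0.156% of reads in NSG marrow and 1.09% in NSG spleen, but 0.0123% in marrow and 0.0518% in spleen of PTPRCA mice. The 95% Wilson intervals were at most 0.00697 percentage points on either side. Both NSG values lay above both PTPRCA values. Without the library that stood apart, NSG spleen fell to 0.0487%, with its 8 unresolved clones counted as 0. That value lay below PTPRCA spleen as deposited. The 8 clones held 335 CPM as deposited, so this order is not settled. PTPRCA spleen without its own such library was at 0.00402%.

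In donor 2 the shares were 0.393% in NSG marrow, 0.202% in NSG spleen, 0.242% in PTPRCA marrow and 0.249% in PTPRCA spleen. The strains overlapped, with the highest and the lowest share both in NSG. Over both donors the mean log2 difference, NSG minus PTPRCA, was 2.11, or 4.33-fold, made of 4.03 in donor 1 and 0.20 in donor 2. The two-sided exact permutation test that exchanged strains within the 2 donors gave p = 0.5, the smallest it can give. The mean was 0.99 without the first NSG spleen library of donor 1, and 3.04 without the second PTPRCA spleen library, where donor 1 was at 5.87. Without the largest clone of each donor, the difference in donor 2 was 0.035.

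The number of clones found ran differently from the reads. Donor 1 had 116 in NSG marrow, 241 in NSG spleen, 121 in PTPRCA marrow and 185 in PTPRCA spleen. Donor 2 had 196 in NSG marrow, 351 in NSG spleen, 981 in PTPRCA marrow and 990 in PTPRCA spleen. The 2 PTPRCA samples of donor 2 were thus far above the other 6. There the clones were 35.0% and 38.9% of all BFP and mCHERRY barcodes found, against 4.89% to 13.2% in the other samples. The log2 difference in number, NSG minus PTPRCA, was 0.16 in donor 1 and -1.91 in donor 2, with a mean of -0.87 (exact permutation p = 1). Without the NSG spleen library of donor 1 that stood apart, the donor 1 difference was -0.89 and the mean -1.40. Without the PTPRCA spleen library they were 2.08 and 0.083, so that the direction in donor 1 turned with the library left out. After adjustment by the Benjamini-Hochberg method over the 6 such tests on the clones' shares and numbers, this p was 1 and each of the others was 0.6.

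The many clones in PTPRCA mice of donor 2 were small. Their median was 0.641 CPM in marrow and 0.536 CPM in spleen, with 57 and 55 clones at 10 CPM or more. Those 57 and 55 clones all had reads in both technical libraries. The few clones of donor 1 NSG spleen were larger, with a median of 32.7 CPM and 151 of 241 at 10 CPM or more. Of the 144 of those whose libraries could be resolved, 136 had reads in 1 library only. In donor 1 PTPRCA marrow the median was 0.571 CPM and 0 clones reached 10 CPM. In donor 1 PTPRCA spleen 11 did, all in 1 library. NSG marrow of donor 1 had a median of 4.65 CPM with 40 clones at 10 CPM or more, of which 38 could be resolved and 23 were in 1 library. In donor 2 NSG spleen the median was 0.613 CPM, and all 36 clones at 10 CPM or more were in both libraries.

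The strains held largely separate clones. A total of 631 clones were found in NSG samples only, 1275 in PTPRCA samples only and 82 in both. The NSG-only clones were 483 BFP and 148 mCHERRY, and 196 of them reached 10 CPM and 16 reached 100 CPM. The PTPRCA-only clones were 208 BFP and 1067 mCHERRY, and 65 reached 10 CPM and 0 reached 100 CPM. Within donor 1, 12 clones were found in both strains, which is 3.75% of the NSG list and 4.46% of the PTPRCA list. Within donor 2, 35 were, or 7.43% and 2.78% of the lists. For baseline-seen clones the corresponding shares were 63.1% and 75.3% in donor 1 and 67.8% and 85.6% in donor 2. Baseline-seen clones were larger, and these shares are not matched for level. Without both spleen libraries of donor 1 that stood apart, 512 clones were in NSG only, 1230 in PTPRCA only and 72 in both, and the number in both strains of donor 1 was 6.

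The separation was also seen among the larger clones. Of the 299 clones that reached 10 CPM, 212 did so in an NSG sample, 87 in a PTPRCA sample and 0 in both. Without the same libraries the numbers were 92, 78 and 0, and with only values that had reads in more than 1 library they were 70, 77 and 0. Of baseline-seen clones, 1570 reached 10 CPM in both strains, which is 56.1% of the 2797 that did so in NSG and 76.3% of the 2057 in PTPRCA. Any reads at all in the other strain of the same donor were rare too. Of 177 clones that reached 10 CPM in NSG mice of donor 1, 7 had reads in PTPRCA mice of that donor, and of 59 in NSG mice of donor 2, 6 did. Of 77 that reached 10 CPM in PTPRCA mice of donor 2, 6 had reads in NSG mice of donor 2, and of the 11 in donor 1, 0 did. Among baseline-seen clones at 10 CPM or more, 73.4% to 97.2% had reads in the other strain of the same donor. That cut is a minimum only. A value of 100 CPM was reached by 1651 baseline-seen clones and 20 clones of the set, so these shares are not matched for level. Between donors, the other strain was less rare for PTPRCA clones. Of the 77 in donor 2, 16 had reads in NSG and 15 in PTPRCA mice of donor 1. Of the 11 in donor 1, 2 had reads in NSG and 10 in PTPRCA mice of donor 2. Of the 177 in NSG mice of donor 1, 9 had reads in PTPRCA and 42 in NSG mice of donor 2. For the 59 in NSG mice of donor 2, these numbers were 4 and 35 in donor 1.

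The same barcodes recurred in the other donor. A total of 577 clones were found in disease samples of donor 1 and 1696 in those of donor 2, and 285 in both, which is 49.4% of the first list and 16.8% of the second. They were 67 BFP and 218 mCHERRY barcodes. In 248 of the 285 (87.0%) the donors shared a strain, and 37 were found in different strains only. Without both spleen libraries, 164 clones were in both donors (58.2% of the 282 of donor 1 and 9.67% of the donor 2 list), and in 132 of them (80.5%) the donors shared a strain. With only values that had reads in more than 1 library, 47 were in both, of which 43 (91.5%) shared a strain. Barcodes seen at baseline in a single donor crossed less often. Of 2338 seen in donor 1 only, 15 (0.642%) had reads in disease samples of donor 2, and of 2716 seen in donor 2 only, 36 (1.33%) had reads in those of donor 1. That set was chosen at 0 in the other donor's baseline, and the difference in crossing was not tested. A further 507 barcodes with reads at disease were seen in both baselines. Of these, 492 had disease reads in donor 1, 36 in donor 2 and 21 in both.

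Overlap between pairs of samples was computed on all clones found. As a percentage of the shorter of 2 lists, samples of the same strain shared 30.6% to 72.5% of clones within a donor and 20.9% to 64.5% between donors. Samples of different strains shared 2.56% to 12.2% within a donor and 2.16% to 19.8% between donors. The ranges of same-strain and different-strain pairs did not overlap. They did without both spleen libraries of donor 1, at 7.69% to 72.5% and 1.79% to 28.6%, where the donor 1 PTPRCA spleen list held 13 clones. With only values that had reads in more than 1 library, the ranges were 0% to 74.8% and 0% to 66.7%, and that list held 3 clones. At 10 CPM or more, clones shared between strains numbered 0 in all 16 pairs, 4 of which include donor 1 PTPRCA marrow, where 0 clones reached that level. Same-strain pairs at that level shared 0 to 35 clones, with 0 in the 3 pairs of donor 1 PTPRCA marrow and between donor 1 PTPRCA spleen and donor 2 PTPRCA marrow.

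Clones found in PTPRCA mice of both donors numbered 172, which is 63.9% of the donor 1 list and 13.7% of the donor 2 list, and 167 of them (97.1%) were mCHERRY. Clones in NSG mice of both donors numbered 78, or 24.4% and 16.6% of the lists, with 55 BFP and 23 mCHERRY. All 4 PTPRCA samples held reads of 30 clones, every one an mCHERRY barcode, and 29 of these were found in no other disease sample. Their levels had medians of 0.735 and 1.24 CPM in marrow and spleen of donor 1, and 5.67 and 7.19 CPM in donor 2. All 4 NSG samples held 19 clones, 13 of which were found in no other disease sample. The 19 had medians of 19.5 and 35.9 CPM in marrow and spleen of donor 1, and 5.17 and 18.2 CPM in donor 2. Both sets rested on the spleen libraries of donor 1 that stood apart. Without them 0 clones were in all 4 PTPRCA samples and 3 in all 4 NSG samples, while 88 were in PTPRCA mice and 45 in NSG mice of both donors.

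Among all 7851 barcodes, GFP included, with reads at disease, 22 (0.28%) had all 4 NSG values above all 4 PTPRCA values, and 19 of these 22 belonged to the set. In the other direction 35 barcodes (0.446%) had all 4 PTPRCA values above all NSG values, and 30 of them belonged to the set. A clone at 0 in the other strain needs only reads in all 4 samples of a strain to count here, whatever its level. Without the donor 1 spleen libraries that stood apart, the clones of the set found in all 4 samples numbered 3 for NSG and 0 for PTPRCA. The 0 means that no clone of the set could then meet the PTPRCA criterion. The 3 is not an upper limit, since the 8 unresolved clones of donor 1 NSG spleen were counted as 0 there.

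The clone with the highest value was mCHERRY_2_Barcode_805948, at 2101 CPM in donor 1 NSG spleen. It was at 31.1 CPM in NSG marrow of that donor, and in its PTPRCA mice at 0.137 CPM in marrow and 0.490 CPM in spleen. In donor 2 this clone was at 75.8 CPM in NSG marrow, 23.3 CPM in NSG spleen and 0 in both PTPRCA samples. NSG values were higher than PTPRCA values in both tissues of both donors. The 2101 CPM came from reads in 1 of 3 technical libraries, whereas the other NSG values had reads in 2 libraries each, which in donor 2 marrow were the 2 of 4 described above. Its mean over the disease samples of donor 1, 533 CPM, was at least 1031-fold higher than the 3-read level of that donor's baseline, a description of how it was chosen. Without that 1 library the mean was 7.93 CPM, at least 15.3-fold higher than the same level.

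BFP_Barcode_354313 had the highest BFP value of donor 1. It was at 119 CPM in NSG marrow and 346 CPM in NSG spleen of donor 1, at 60.3 and 72.0 CPM in those of donor 2, and at 0 in all 4 PTPRCA samples. Its spleen value of donor 1 again came from the library that stood apart, and the other 3 NSG values from 2 libraries each, in donor 2 marrow again those 2 of 4. The remaining large clones of donor 1 had the same skew toward NSG spleen. mCHERRY_2_Barcode_238 was at 296 CPM there and 4.83 CPM in NSG marrow, and at 77.8 and 18.2 CPM in NSG marrow and spleen of donor 2. mCHERRY_2_Barcode_91281 was at 291 CPM in NSG spleen of donor 1 with 0 in the marrow, and at 37.9 CPM in NSG marrow of donor 2. mCHERRY_2_Barcode_89563 was at 60.9 CPM in NSG marrow and 193 CPM in NSG spleen of donor 1, and at 2.67 CPM in NSG marrow of donor 2. In PTPRCA samples the highest value of these 3 clones was 0.348 CPM, in donor 2 spleen. All 3 had their donor 1 NSG spleen reads in that 1 library.

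In donor 2 the largest clones were higher in NSG marrow than in NSG spleen. mCHERRY_2_Barcode_637152 was at 655 CPM in NSG marrow and 48.1 CPM in NSG spleen, mCHERRY_2_Barcode_489379 at 610 and 112 CPM, and BFP_Barcode_125517 at 517 and 173 CPM. All 3 were at 0 in the 4 PTPRCA samples and had reads in more than 1 library in both NSG samples of donor 2. In NSG marrow these may be the 2 of 4 libraries described above, since pairs were not told apart over 100 CPM. In donor 1 they were at 8.19, 69.5 and 94.0 CPM in NSG spleen, in the 1 library that stood apart, and at 0 in the other 3 disease samples. BFP_Barcode_526810 was at 426 CPM in NSG marrow and 3.99 CPM in NSG spleen of donor 2, and BFP_Barcode_565785 at 284 and 11.3 CPM. Both were at 0 in the PTPRCA samples. In NSG marrow of donor 1 they were at 0.210 and 25.9 CPM.

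Clones higher in PTPRCA mice were smaller. In donor 2, BFP_Barcode_23654 was at 81.2 CPM in PTPRCA marrow and 44.4 CPM in PTPRCA spleen, with 2.77 CPM in NSG spleen and 0 in NSG marrow. mCHERRY_2_Barcode_131202 was at 70.1 and 41.8 CPM in these PTPRCA tissues, and at 0 in the other 6 disease samples. BFP_Barcode_345036 was at 56.6 and 54.6 CPM in them, at 0 in NSG mice of donor 2, and at 0.179 and 0.265 CPM in NSG marrow and spleen of donor 1. All 3 had reads in both libraries of both PTPRCA samples. In donor 2, 5 clones were over 4-fold higher in PTPRCA in both tissues on the log2(CPM + 10) scale, and 6 were over 4-fold higher in NSG. Over all clones found in donor 2 these shares were 2.29% and 4.3%, against 0.295% and 0.354% of the 1696 clones here. In donor 1, 9 of 577 clones (1.56%) were over 4-fold higher in NSG in both tissues, against a background of 7.01%, and 0 were so in PTPRCA, against 3.21%. Without the NSG spleen library that stood apart, 2 clones of the set were over 4-fold higher in NSG.

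Of clones at 10 CPM or more in both donors there were 25 (14 BFP and 11 mCHERRY). In 24 of them that level was reached in NSG mice of both donors, in 1 in PTPRCA mice of both, and in 0 across strains. Without both spleen libraries of donor 1 there were 11, all in NSG mice of both donors. BFP_Barcode_100420 was at 76.7 and 90.4 CPM in NSG marrow and spleen of donor 1, and at 0.812 and 123 CPM in those of donor 2. BFP_Barcode_533119 was at 31.5 and 70.2 CPM in donor 1 and 5.17 and 49.3 CPM in donor 2, with 2.73 CPM in PTPRCA marrow of donor 2. Both had donor 1 NSG spleen reads in more than 1 library. mCHERRY_2_Barcode_382334 was at 159.5 CPM in NSG spleen of donor 1, in the library that stood apart, and at 129 and 2.72 CPM in NSG marrow and spleen of donor 2.

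Marrow and spleen shared few of these clones outside PTPRCA mice of donor 2. In NSG mice of donor 1, 37 clones were found in both tissues, 79 in marrow only and 204 in spleen only, so that 11.6% were in both. In PTPRCA mice of donor 1 the numbers were 37, 84 and 148, or 13.8% in both. In NSG mice of donor 2 they were 76, 120 and 275, or 16.1%. In PTPRCA mice of donor 2 they were 711, 270 and 279, or 56.4%. Baseline-seen clones, which were larger, were found in both tissues in 71.3% to 82.8% of cases. Without the library that stood apart, 8.86% of clones were in both tissues in NSG mice of donor 1 and 3.08% in PTPRCA mice of donor 1. At 10 CPM or more the shares of the set were 7.91% (NSG) and 0% (PTPRCA) in donor 1 and 27.1% and 45.5% in donor 2. Those of baseline-seen clones were then 58.5% to 77.4%, still not matched for level.

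The share found in both tissues, NSG minus PTPRCA, differed by -2.19 percentage points in donor 1 and -40.3 in donor 2, with a mean of -21.2 (two-sided exact permutation p = 0.5). Without the donor 1 PTPRCA spleen library that stood apart, the difference in donor 1 was 8.49 points and the mean was -15.9. With only values that had reads in more than 1 library they were 18.2 and -8.48 points, and at 10 CPM or more 7.91 and -5.21. The direction in donor 1 turned in all 3, but each left few clones to compare. At 10 CPM or more donor 1 PTPRCA marrow held 0 clones, so the share in PTPRCA mice of donor 1 could only be 0. In the other settings donor 1 PTPRCA spleen held 13 clones without its library and 3 in more than 1 library. Among clones found in both tissues, log2 CPM of marrow and spleen correlated at r = 0.504 over the 37 clones of donor 1 NSG mice, 0.252 over 37 in donor 1 PTPRCA mice, 0.361 over 76 in donor 2 NSG mice and 0.720 over 711 in donor 2 PTPRCA mice. These are correlations across clones that share libraries, and clones are not independent replicates. Without the NSG spleen library that stood apart, r in donor 1 NSG mice was 0.550 over 14 clones, and without the PTPRCA library 4 clones were left in both tissues of donor 1 PTPRCA mice.

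Spleen held more of these clones than marrow in 4 of 4 pairs, with log2 differences of 1.05 in donor 1 NSG, 0.61 in donor 1 PTPRCA, 0.84 in donor 2 NSG and 0.01 in donor 2 PTPRCA. The mean was 0.63, or 1.55-fold, and the exact sign-flip permutation test gave p = 0.13, the smallest that 4 pairs allow. That test takes the NSG and PTPRCA pairs of a donor as separate. Without the donor 1 PTPRCA spleen library the mean was -0.33, and without the donor 1 NSG spleen library it was 0.10. With only clones at 3 reads or more counted, donor 2 PTPRCA was at -0.06 and the mean was 0.76 (p = 0.25 in the same exact test). The numbers were not matched for read depth. The share of reads, spleen minus marrow, differed by a mean log2 of 0.99 (p = 0.375 in the same exact test), positive in 3 of 4 pairs and 2.80, 2.07, -0.96 and 0.04 in that order. It was -0.13 without the donor 1 NSG spleen library, with the 8 unresolved clones of that sample counted as 0. Without the donor 1 PTPRCA spleen library it was 0.07.

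Several clones were sizeable in 1 tissue and at 0 in the other. In NSG mice, BFP_Barcode_124977 was at 77.4 CPM in marrow of donor 1, BFP_Barcode_228751 at 55.7 CPM in marrow of donor 2 and BFP_Barcode_124629 at 85.4 CPM in spleen of donor 2. Each of these had reads in 2 technical libraries, which for BFP_Barcode_228751 were the 2 of 4 described above. The highest such value was that of mCHERRY_2_Barcode_91281 in spleen of donor 1, given above, with reads in 1 library. In PTPRCA mice the highest such values were lower. In donor 1, BFP_Barcode_35896 was at 5.78 CPM in marrow and mCHERRY_2_Barcode_14106 at 43.6 CPM in spleen, each in 1 library. In donor 2, mCHERRY_2_Barcode_3222 was at 3.43 CPM in marrow and BFP_Barcode_289902 at 7.87 CPM in spleen, each in both libraries. mCHERRY_2_Barcode_14106 also had 1.22 and 1.42 CPM in PTPRCA marrow and spleen of donor 2, and BFP_Barcode_124977 had 4.14 CPM in NSG spleen of donor 2.

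The share of BFP barcodes among the clones' reads was compared between strains. In donor 1, BFP barcodes held 78.1% of the clones' reads in marrow and 54.9% in spleen of NSG mice, against 33.8% and 5.80% in PTPRCA mice. In donor 2 they held 46.1% and 75.6% in NSG mice, against 21.0% and 22.9% in PTPRCA mice. Within each donor both NSG values lay above both PTPRCA values. Baseline-seen clones of donor 1 had BFP shares of 31.1% (marrow) and 33.6% (spleen) in NSG mice, against 12.2% and 12.0% in PTPRCA mice, so that the same order was found there. In donor 2 the baseline-seen shares were 8.30% and 10.5% in NSG mice and 8.77% and 19.2% in PTPRCA mice. The log2 difference was 2.23 in donor 1 and 1.43 in donor 2, with a mean of 1.83, or 3.55-fold (two-sided exact permutation p = 0.5, the smallest possible). Without the donor 1 PTPRCA spleen library that stood apart, the BFP share there was 89.0%, above both NSG values, the donor 1 difference was 0.25 and the mean 0.84. Without the donor 1 NSG spleen library the BFP share of that sample was 99.0%. By number, mCHERRY barcodes were 830 of 981 and 826 of 990 clones in PTPRCA marrow and spleen of donor 2, and 40 of 351 in its NSG spleen. BFP barcodes were 35.8% of all clones in the set and 61.2% of baseline-seen clones.

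A test of single clones was fitted with limma on log2(CPM + 10) over the 3443 clones that reached 100 CPM in any sample. Only 20 of the 1988 clones passed that filter, all through NSG samples, so their direction between strains was set by the filter. Their highest PTPRCA value was 3.11 CPM. At a Benjamini-Hochberg adjusted p below 0.05, 0 of the 20 were called between strains, against 0 of 3443 clones (0%), and at an unadjusted p below 0.05 the numbers were 0 and 1 (0.029%). Between spleen and marrow, 0 of 20 and 0 of 3443 were called, by adjusted and by unadjusted p. When the donor was a block, 0 of 20 were called between strains, against 10 of 3443 (0.29%). By unadjusted p the block fit gave 8 of 20 and 248 of 3443 (7.2%), and the filter had fixed the direction of those 8. That fit counted each tissue on its own, although marrow and spleen are not independent here. With the 2 tissues averaged before the donor block was fitted, 0 of 20 and 0 of 3443 were called between strains by adjusted p. By unadjusted p the averaged fit gave 3 of 20 and 26 of 3443, again with the direction of the 3 fixed by the filter. On this scale the fold of small clones is understated.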

How the data were processed

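Barcodes were amplified by PCR from genomic DNA of sorted cells, after lysates were split into technical replicates, per the labels' protocols. Tools named in the submitters' processing notes were Bowtie 1.2.2 and R 3.6. How barcodes were filtered and technical replicates combined is not stated in the labels. The deposited unit is CPM, and each of the 10 columns summed to 1000000 as the authors scaled it.

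Low CPM values were sums of whole multiples of 2 to 4 steps per column, which gave whole read totals for 23 libraries (largest distance 0.00972 reads, tolerance 0.05). Values were split into reads per library, with 1 solution for 98.1% to 99.9% of them. Because no single step gives whole reads, no count model was run. "In 1 library" means all reads of a value in 1 technical library.

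Samples were grouped by strain and tissue from their titles, with the donor as the replicate. P-values measure the spread between samples of 2 donors. Exact permutation tests, all two-sided, exchanged the strains within each donor (smallest p 0.5) or flipped 4 spleen minus marrow differences (smallest p 0.13). Single clones were tested with limma 3.58.1 (lmFit, eBayes with a trend; R 4.3.3) on log2(CPM + 10) over all 10 samples, with 1 mean per group. By the labels, a shared number means a shared donor mouse, so samples are paired by donor. Their deviations from group means correlated at 0.466 to 0.944 over 10 pairs of groups.

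The set and the lists were chosen with earlier results of these data known. Clones named are, per donor, the 5 with the highest mean at disease, those over 4-fold apart between strains in both tissues (up to 3 per direction), the highest value per colour, and per strain the highest found in 1 tissue only. Added to these are up to 8 clones at 10 CPM or more in both donors, and any clone called by limma. Python 3.11.15, numpy 2.4.6, pandas 2.3.3 and scipy 1.17.1 were used. Alternatives were a donor block, other pseudocounts and filters, other detection minimums and definitions of absence at baseline, each donor or the largest clone left out and, chosen after seeing the data, values with reads in more than 1 library and the removal of either spleen library of donor 1 that stood apart.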

Additional observations from a re-analysis of the deposited data

Results flagged for a closer look

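The BFP share of the clones' reads moved in opposite directions between marrow and spleen in the donors. In donor 1 it was lower in spleen in both strains, 54.9% against 78.1% in NSG mice and 5.80% against 33.8% in PTPRCA mice, with a mean log2 difference, spleen minus marrow, of -1.53. In donor 2 it was higher in spleen in both strains, 75.6% against 46.1% in NSG mice and 22.9% against 21.0% in PTPRCA mice, with a mean log2 difference of 0.42. The difference between donors was not tested. Without the technical libraries that stood apart, the donor 1 spleen shares were 99.0% in NSG mice and 89.0% in PTPRCA mice, and the log2 differences were 0.34 and 1.40, positive as in donor 2.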

How the results depend on the processing

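Of 6 comparisons of shares and numbers, 3 kept the direction of their mean over donors under every alternative run. They were the share of reads and the BFP share between strains, and the share in both tissues. The last went from -21.2 points to between -40.3 and -2.19. It turned in donor 1 under 3 alternatives, each of which left few or 0 clones in a donor 1 PTPRCA sample. The log2 difference in the share of reads, spleen minus marrow, was 0.99. It was -1.57 with values in more than 1 library only, -0.13 without the first library of donor 1 NSG spleen, and -0.46 to 2.44 with either donor left out. The value of -0.13 counted the 8 unresolved clones of that spleen as 0. The difference in number, spleen minus marrow, was 0.63, and -0.67 and -0.33 with values in more than 1 library only and without the second library of donor 1 PTPRCA spleen. The difference in number, NSG minus PTPRCA, was -0.87, 0.083 without that second library, and -1.91 to 0.16 with either donor left out. Differences in number at 10 or 100 CPM had no value because a sample held 0 such clones. The share in both tissues at 100 CPM had no value because 0 clones reached that level in either tissue of PTPRCA mice. By limma, 0 clones of the set were called under all 11 alternatives, the fit with donor as a replicate block included. Among clones at 10 CPM or more, the number shared between strains was 0 under both added treatments of the technical libraries, whereas clones in all 4 PTPRCA samples went from 30 to 0. With 2 donors no permutation p between strains could go below 0.5. The floor of 0.13 between tissues comes from taking the NSG and PTPRCA pairs of a donor as separate. At these depths clones under 0.289 to 0.580 CPM per sample are below the 3-read level.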
